A study of Mus musculus with 6 samples.

Results

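The Krüppel-like factors described here are 10 genes, Klf2, Klf3, Klf4, Klf5, Klf6, Klf7, Klf9, Klf10, Klf11 and Klf13, found by symbol among the 24354 genes of an RNA-seq table. The cells were TM4, an established line derived from Sertoli cells of the mouse testis. Cells given 100 nM aluminium chloride (AlCl3) for 30 days, in 3 libraries, were set against cells labelled control at the same day, also in 3. The labels repeat the AlCl3 treatment text on the control samples, so the groups rest on the sample titles, and their extraction text names retinas, not TM4 cells. The labels give no genetic change and no other agent for either group, and do not tell whether replicates were grown apart. The values are FPKM, reads per kilobase of gene and per total reads of the library. The length used matches that of all exons of a gene, which can exceed its longest transcript. Levels of different genes can therefore be set side by side only roughly. The 10 genes were chosen by family name with their FPKM values in both groups already known, so the levels of the members are given as a description. The members entered the fit over all genes, but nothing is read from their calls there. All 10 passed the filter on low values, a mean of at least 1 FPKM over the 6 libraries.

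Krüppel-like factors are transcription factors with a conserved carboxy-terminal block of zinc fingers that binds GC-rich DNA, mainly GC boxes and CACCC boxes, sites they share with the related Sp factors. Klf2, Klf4, Klf5, Klf6 and Klf7 act mostly as activators, Klf3 is a repressor that recruits CtBP corepressors, and Klf9, Klf10, Klf11 and Klf13 recruit the SIN3 corepressor. Many members are switched on quickly by serum, hormones, TGF-beta or shear stress. In the mouse testis Klf4 is induced by follicle-stimulating hormone in Sertoli cells and takes part in their differentiation.

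Promoter windows, from 250 bases before to 50 bases after the annotated start, were found for 8 of the 10 members in RefSeq (GRCm38.p6). GC boxes were searched as GGGCGG and CACCC boxes as CCACCC on both strands. GC boxes stood in 7 of the 8 windows, against 35.7% of the 32851 windows of the same length in the table, and CACCC boxes in 4 of 8, against 31.5%. The member windows were also richer in G and C, with a median of 70.7% and a range of 58.3% to 77.7% against a median of 52.7% over all windows. Of the sites of both kinds, 1 pair overlapped. Windows of 4 members are shown in lower case, 5′ to 3′ on the gene's strand, with GC and CACCC boxes in capitals. They set Klf2, Klf3 and Klf4, lower in AlCl3, beside Klf6, whose groups overlapped. The windows are chr8:72318812-72319111 on the plus strand, chr5:64803271-64803570 on the plus strand, chr4:55532426-55532725 on the minus strand and chr13:5861239-5861538 on the plus strand.
Klf2: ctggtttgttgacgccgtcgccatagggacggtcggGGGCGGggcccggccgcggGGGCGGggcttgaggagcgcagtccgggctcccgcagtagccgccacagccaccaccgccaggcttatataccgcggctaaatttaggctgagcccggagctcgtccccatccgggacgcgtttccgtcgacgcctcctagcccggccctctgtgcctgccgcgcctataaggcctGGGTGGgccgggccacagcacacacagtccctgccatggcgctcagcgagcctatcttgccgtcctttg
Klf3: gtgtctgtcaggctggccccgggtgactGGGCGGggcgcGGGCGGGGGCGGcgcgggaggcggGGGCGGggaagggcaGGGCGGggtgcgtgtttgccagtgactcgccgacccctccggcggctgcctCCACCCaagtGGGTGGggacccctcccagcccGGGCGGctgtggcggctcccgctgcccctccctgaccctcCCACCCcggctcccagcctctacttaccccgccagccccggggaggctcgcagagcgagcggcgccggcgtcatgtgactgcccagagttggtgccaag
Klf4: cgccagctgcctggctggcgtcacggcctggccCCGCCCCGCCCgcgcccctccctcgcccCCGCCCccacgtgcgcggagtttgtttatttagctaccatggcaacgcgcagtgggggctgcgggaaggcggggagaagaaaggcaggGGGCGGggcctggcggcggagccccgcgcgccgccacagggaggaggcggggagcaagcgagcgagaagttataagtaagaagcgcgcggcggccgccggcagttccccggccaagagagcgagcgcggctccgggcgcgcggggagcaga
Klf6: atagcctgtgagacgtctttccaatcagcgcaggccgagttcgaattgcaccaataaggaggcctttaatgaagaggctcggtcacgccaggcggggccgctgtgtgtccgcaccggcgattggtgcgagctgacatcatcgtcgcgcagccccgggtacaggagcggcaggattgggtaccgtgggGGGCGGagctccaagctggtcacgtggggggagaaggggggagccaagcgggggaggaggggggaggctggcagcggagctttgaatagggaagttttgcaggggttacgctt

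The Klf3 window held 6 GC boxes and 3 CACCC boxes, and that of Klf4 held 4 GC boxes. The Klf2 window held 2 GC boxes and 1 CACCC box, while Klf6 had 1 GC box and 4 CCAAT boxes. The latter, searched by those letters, stood in 4 of 8 member windows and in 37.4% of all windows. In windows not shown, Klf13, whose groups also overlapped, had 3 GC boxes, 1 CACCC box and 2 CCAAT boxes. Of members lower in AlCl3, Klf7 had 1 GC box and 3 CACCC boxes. Klf9, also lower, had 0 GC boxes and 3 CCAAT boxes, and Klf11 had 4 GC boxes and 2 CCAAT boxes. A link between these boxes and the levels was not tested. The Klf2 window was the only member window with a match to the MEF2 site, the binding motif of the MEF2 factors, which was found in 3.19% of all windows. Its first base lies at position -118 from the RefSeq start that sets the window, which lies downstream of the GENCODE gene start printed with the values, and the match spans chr8:72318944-72318953 on the plus strand. It is shown because MEF2 factors are known activators of Klf2.
MEF2 site of Klf2: CTAAATTTAG

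E-boxes, searched as CACGTG, lay in the windows of Klf4, Klf6 and Klf11, or 3 of 8 against 7.15% of all windows. The short core of the cAMP response element, searched as TGACG, lay in 5 of 8 against 20.8%, and the AP-1 site, searched as TGANTCA, in that of Klf9 alone, against 7.81%. The TATA box (TATAAA), the full cAMP response element (TGACGTCA) and the serum response CArG box were matched in 0 of 8 windows and in 13.6%, 1.79% and 1.63% of all windows. These matches describe letters in the windows and show no binding.

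**Figure D1:**
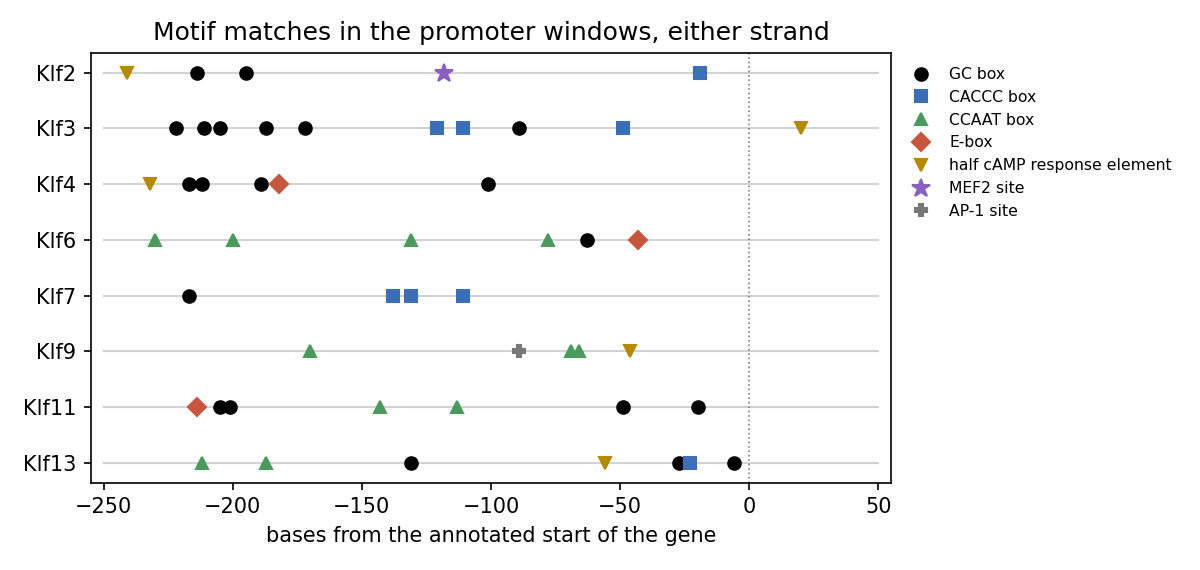
Motif matches on either strand (symbols) in the promoter windows of the 8 Klf members found in RefSeq, by the distance of the first base from the annotated start of the gene (dotted line, bases). GC boxes stand in all windows but that of Klf9, and the MEF2 match stands in that of Klf2.

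The libraries held 13381191 to 17339432 reads in genes, with the fewest in AlCl3 2. Of the 10 members, 8 were lower in AlCl3 with all 3 AlCl3 values below all 3 control values, while Klf6 and Klf13 overlapped between the groups. Among all 11202 genes tested, 32.4% had every AlCl3 value below every control value, and nothing is read from the members' count, since the members were chosen with these values known. In the fit over all genes (limma, Benjamini-Hochberg adjusted p under 0.05), 30.2% passed as lower and 31.2% as higher. The median log2 fold change of FPKM + 1 was -0.73 over the 10 members, with a range of -1.71 to 0.13, and 0.03 over all genes tested. In bulk RNA, fewer cells that express a gene and less RNA per cell cannot be told apart.

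**Figure D2:**
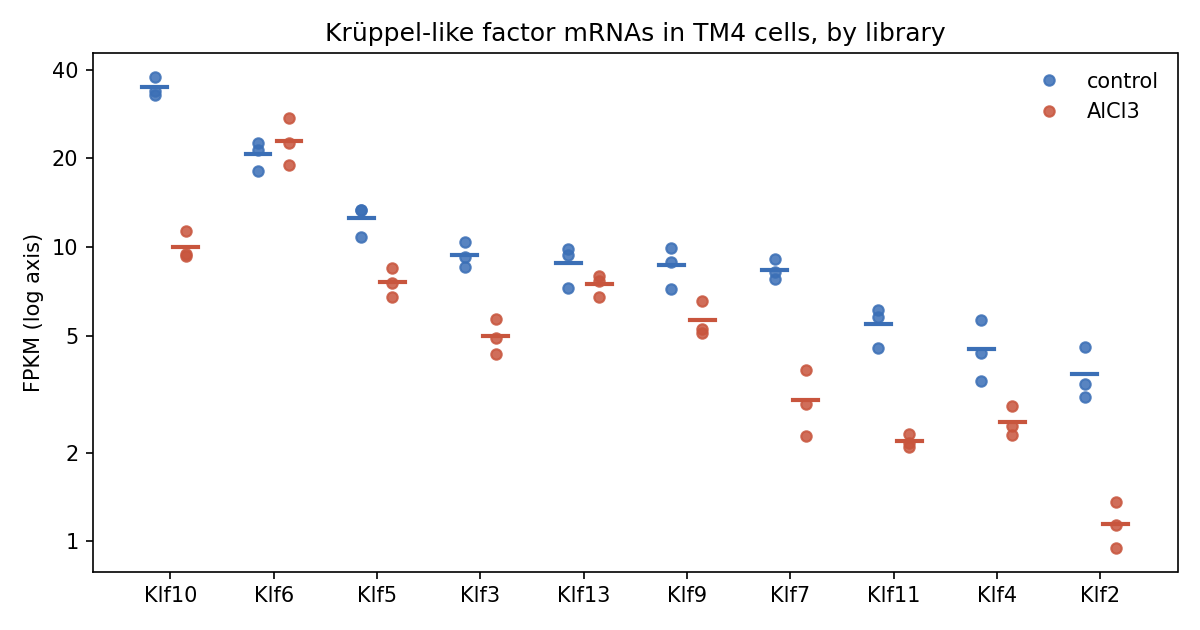
FPKM (log axis) of the 10 Klf members in each control (blue) and AlCl3 (red) library, with points for libraries, horizontal lines for group means of 3 libraries, and genes ordered by their control mean. The points do not overlap in 8 genes, while Klf6 and Klf13 overlap.

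Gene positions are those of GRCm38. Among the activators, Klf2 (chr8:72319033-72321656), which promotes quiescence in endothelial and T cells, stood at 3.10, 3.43 and 4.57 FPKM in control 1 to 3 and at 1.14, 1.36 and 0.946 FPKM in AlCl3 1 to 3. The AlCl3 values all lay below the controls, and the mean was 3.23-fold lower, from 3.70 ± 0.775 to 1.15 ± 0.205 FPKM (SD, n = 3 each). The log2 fold change of FPKM + 1 was -1.12 (SE 0.15), and -0.51 once the trend with GC content and length was removed. Klf2 had the fewest reads of the members, 95 to 147 in controls and 30 to 37 in AlCl3, and its transcript was richer in G and C (61.6%) than 98.3% of the genes tested.

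Klf4 (chr4:55527143-55532466), a reprogramming factor that also guards epithelial barriers, was at 4.37, 3.50 and 5.66 FPKM in controls and at 2.29, 2.87 and 2.47 FPKM in AlCl3. The groups came close, with 3.50 as the lowest control and 2.87 as the highest AlCl3 value. The mean was 1.77-fold lower, with a log2 fold change of -0.62 (SE 0.16). Klf5 (chr14:99298691-99315036), a factor of proliferating epithelium and of smooth muscle, was at 10.8, 13.3 and 13.3 FPKM in controls against 7.57, 6.74 and 8.47 FPKM in AlCl3. It was 1.65-fold lower (log2 fold change -0.65, SE 0.13), with no overlap of the groups.

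Klf7 (chr1:64029447-64122282), known from axon growth in neurons, was at 7.78, 9.11 and 8.24 FPKM in controls and at 2.92, 2.28 and 3.83 FPKM in AlCl3. It was 2.78-fold lower, with a log2 fold change of -1.24 (SE 0.15), and the AlCl3 libraries spread more widely around their mean (coefficient of variation 25.8%) than the controls (8.08%). The exons of Klf7 share 3196 bases with Gm26649, a noncoding gene on the opposite strand, and the strand setting of the counting is not given in the sources used here, so reads of the pair cannot be told apart.

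Klf6 (chr13:5861482-5870394), an early-response gene and tumour suppressor, differed from these in that its groups overlapped. It was at 18.1, 21.4 and 22.5 FPKM in controls and at 22.5, 19.0 and 27.3 FPKM in AlCl3. Its means were 20.7 ± 2.25 and 22.9 ± 4.21 FPKM (SD, n = 3 each). The log2 fold change was 0.13 (SE 0.15), and -0.21 once the GC and length trend was removed, so its sign depends on that step.

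The repressor gene Klf3 (chr5:64803388-64832901), which acts in fat and red blood cells, was at 8.56, 9.25 and 10.4 FPKM in controls and at 4.91, 4.33 and 5.68 FPKM in AlCl3. The mean was 1.89-fold lower (log2 fold change -0.80, SE 0.13). Its groups lay well apart, and it rested on at least 662 reads in every library. Klf3 shares 404 exon bases with Gm20033, a noncoding gene on the opposite strand that held at most 8 reads in a library.

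In the group that recruits SIN3, Klf10 (chr15:38291463-38300706), first described as a gene induced early by TGF-beta, showed the largest fold difference of the members. It was at 33.8, 32.9 and 37.9 FPKM in controls and at 9.28, 11.3 and 9.47 FPKM in AlCl3. The mean was 3.48-fold lower, from 34.9 ± 2.67 to 10.0 ± 1.11 FPKM (SD, n = 3 each), a log2 fold change of -1.71 (SE 0.12). Its related gene Klf11 (chr12:24651274-24662789), also induced by TGF-beta and linked to insulin gene control, was at 4.54, 6.13 and 5.80 FPKM in controls and at 2.16, 2.09 and 2.32 FPKM in AlCl3. It was 2.51-fold lower (log2 fold change -1.02, SE 0.13), and the coefficient of variation of its AlCl3 values was 5.52%.

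Klf9 (chr19:23141226-23168134), a gene induced by glucocorticoids and thyroid hormone, was at 7.17, 8.90 and 9.91 FPKM in controls and at 5.25, 5.09 and 6.53 FPKM in AlCl3. It showed the smallest difference of the 8 members whose groups did not overlap, 1.54-fold (log2 fold change -0.54, SE 0.15). Klf13 (chr7:63886351-63938915), an activator of the chemokine gene CCL5 in human T cells, was at 7.24, 9.42 and 9.84 FPKM in controls and at 6.78, 7.65 and 7.99 FPKM in AlCl3. Its control 1 value lay among the AlCl3 values. The log2 fold change was -0.21 (SE 0.14), -0.33 without control 1, and 0.16 once the GC and length trend was removed.

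**Figure D3:**
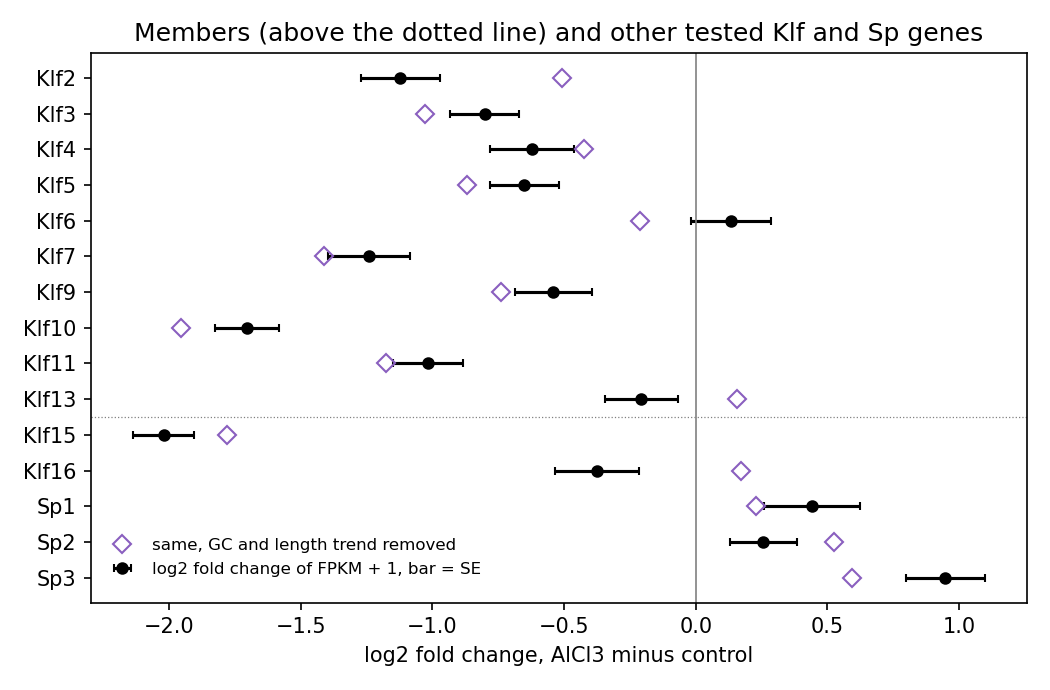
Log2 fold change of FPKM + 1 (AlCl3 minus control, black points with SE bars) and the same after the GC and length trend was removed (open diamonds) for the 10 Klf members and the other tested Klf and Sp genes. Klf10 has the lowest value of the members at -1.71, Klf6, Klf13 and Klf16 change sign with the GC and length step, and Sp3 stands at 0.95.

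The order of the levels differed between the groups at its top. The ranks are of FPKM per kilobase of all exons, and ranks per transcript length were not worked out. That exon length was 11243 bases for Klf3, against 5221 in its longest transcript, and 1847 by both measures for Klf2, so ranks between genes depend on it. In controls Klf10 ranked 1, Klf6 ranked 2 and Klf5 ranked 3, with ranges over 3 libraries that did not overlap between neighbours. Klf3, Klf13, Klf9 and Klf7 followed with means of 9.40, 8.83, 8.66 and 8.37 FPKM, and neighbours among them did not differ beyond their spread. Klf11, Klf4 and Klf2 came last with overlapping ranges between neighbours, below that of Klf7. In AlCl3 Klf6 ranked 1 at 22.9 FPKM and Klf10 ranked 2 at 10.0 FPKM, with separate ranges. Klf5 and Klf13, at 7.59 and 7.48 FPKM, overlapped, as did Klf9 with Klf3 and, further down, Klf7 with Klf4 and Klf4 with Klf11. Klf2 came last, below the range of Klf11.

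The FPKM of the 10 members summed to 105, 117 and 128 in control 1 to 3 and to 64.8, 62.7 and 75.1 in AlCl3 1 to 3, with no overlap. Klf10 made up 32.0%, 28.0% and 29.6% of that sum in controls and 14.3%, 18.0% and 12.6% in AlCl3. Klf6 made up 17.7% ± 0.530 in controls and 33.8% ± 3.18 in AlCl3 (SD, n = 3 each). The sum over these 10 members was therefore led by Klf10 in every control library and by Klf6 in every AlCl3 library. It leaves out other family genes such as Klf16, with means of 15.2 FPKM in controls and 11.4 FPKM in AlCl3.

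Features that played no part in the choice of the members varied among them. The GC content of the longest transcript ranged from 42.4% in Klf6 to 61.6% in Klf2, with a median of 47.7%, against 49.7% over the genes tested. Their 3′ untranslated regions had a median length of 2719 bases, against 1222 bases over 9802 coding genes tested. The pentamer AUUUA, a core of elements that can speed mRNA decay, occurred at a median of 2.06 per kb of that region, against 1.33 per kb over those genes. Klf7 had the most per kb (2.87) and Klf13 the fewest (0.582), while Klf6 lay at 2.25. The genes are spread over 10 chromosomes, and their transcripts had few exons, a median of 4 against 8.

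Outside the 10 members, 4 other Klf genes were in the table and 2 of them were tested. Klf15 (chr6:90462576-90475238), a metabolic regulator induced by glucocorticoids in many tissues, fell to a level of at most 2 reads in an AlCl3 library. It was at 3.02, 3.10 and 3.44 FPKM in controls and at 0, 0.0528 and 0.0418 FPKM in AlCl3. This rests on 453 reads in controls and 4 in AlCl3, a 108-fold lower rate with a 95% exact interval of 41.7 to 397 that covers counting error only. Its log2 fold change of FPKM + 1, -2.02 (SE 0.12, adjusted p = 3.0e-06), understates this, and reached -4.66 with a pseudocount of 0.1 and -6.65 on recovered reads. Klf16, a SIN3-binding factor, was at 13.2, 13.4 and 19.1 FPKM in controls and at 10.6, 12.9 and 10.6 FPKM in AlCl3 and did not pass (log2 fold change -0.38, SE 0.16, adjusted p = 0.067), with a value of 0.17 once the GC and length trend was removed. Klf16 passed without control 1 (adjusted p = 0.048) and without AlCl3 2 (0.038). Klf1, the red blood cell factor, and Klf12, a CtBP-binding repressor, lay under 0.12 FPKM in every library.

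The Sp factors, which bind the same GC boxes, were tested in 3 cases. Sp3, which can activate or repress, rose from 14.2, 13.1 and 17.0 FPKM in controls to 30.8, 24.3 and 33.3 FPKM in AlCl3, 2.00-fold on the means (log2 fold change 0.95, SE 0.15, adjusted p = 5.1e-04). The value was 0.59 once the GC and length trend was taken out. Sp3 shares 109 exon bases with the antisense gene Sp3os, which held at most 113 reads in a library against at least 1088 for Sp3. Sp1, a general activator, was at 8.05, 9.47 and 10.0 FPKM in controls and at 13.3, 9.49 and 16.4 FPKM in AlCl3 and did not pass (0.44, SE 0.18, adjusted p = 0.061). AlCl3 2 lay among the controls. Sp1 passed after rescaling to TPM (adjusted p = 0.045), under median-ratio scaling (0.043) and in voom (0.040), and also without AlCl3 2 (log2 fold change 0.64, adjusted p = 0.0044, with a range of 0.0044 to 0.21 over the alternatives). Sp2, at 0.26 on the log2 scale (adjusted p = 0.11), passed at 0.53 once the GC and length trend was removed (4.0e-04). Sp2 shares 126 exon bases with D030028A08Rik, a noncoding gene on the opposite strand. That gene held 53 to 56 reads in controls and 78 to 119 in AlCl3, against 358 to 483 for Sp2 over the libraries. Sp4 fell under the filter, at 1.13 ± 0.284 FPKM in controls and 0.516 ± 0.0864 in AlCl3, and Sp7, Sp8 and Sp9 stayed under 0.3 FPKM.

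Genes known to act on, with or below Klf proteins were set in 7 lists. Over all of them 18 of 61 genes tested rose and 18 fell, shares near the 31.2% and 30.2% of all genes. The ERK5 kinase and the MEF2 factors it activates, the route to Klf2 and Klf4 in endothelial cells, had 2 of 6 genes that fell. Mapk7, the ERK5 gene, stood at 11.8 ± 1.43 FPKM in controls and fell to 6.19 ± 0.741 in AlCl3 (-0.83 on the log2 scale, SE 0.13, adjusted p = 5.8e-04) and Mef2d from 26.8 ± 4.28 to 15.2 ± 0.873 FPKM (-0.77, adjusted p = 0.0010). With the GC and length trend removed these stood at -0.43 and -0.47. Mef2a and Map3k3, at 0.26 and -0.22 on the log2 scale, did not pass. Mef2a passed without AlCl3 2 (0.40, adjusted p = 0.029) and Map3k3 without control 1 (-0.35, adjusted p = 0.032).

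In the TGF-beta route, which induces Klf10 and Klf11, 3 of 9 genes fell and 2 rose. The receptor gene Tgfbr2 fell from 39.0 ± 6.21 to 19.7 ± 0.511 FPKM (-0.93 on the log2 scale, adjusted p = 3.0e-04) and the ligand gene Tgfb2 from 3.92 ± 0.728 to 1.99 ± 0.225 FPKM (-0.71). The other receptor gene, Tgfbr1, rose from 1.36, 1.21 and 1.91 FPKM in controls to 3.36, 2.35 and 4.08 FPKM in AlCl3 (0.76, and 0.48 with the GC and length trend removed), as did the signal carrier gene Smad2 (0.65). Among the glucocorticoid receptor and genes it induces, the setting of Klf9 and Klf15, 3 of 6 fell. Dusp1, a MAP kinase phosphatase gene, fell from 17.1 ± 1.27 to 6.24 ± 1.94 FPKM (-1.35, adjusted p = 1.6e-04), and the clock gene Per1 from 13.3 ± 2.75 to 4.65 ± 1.06 FPKM (-1.34, and -0.82 with that trend removed). Tsc22d3, which encodes the glucocorticoid-induced leucine zipper, fell by 1.12 on the log2 scale, whereas the receptor gene Nr3c1 had a value of 0.38 (adjusted p = 0.098) and did not pass. It passed without AlCl3 2 (0.57, adjusted p = 0.012). Named beyond the 4 genes of smallest p, the induced genes Sgk1 (-0.21, adjusted p = 0.28) and Fkbp5 (0.04, adjusted p = 0.79) did not pass either.

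Serum response factors, which drive early-response genes, fell in 3 of 6 cases and rose in 1. Srf fell from 47.8 ± 7.39 to 24.9 ± 1.94 FPKM (-0.91 on the log2 scale, adjusted p = 3.8e-04), and stood at -0.24 with the GC and length trend removed. Elk1 fell by 0.70 and Elk3, both partners of SRF, rose by a log2 fold change of 0.66. The call of Mrtfa, an SRF coactivator (-0.46, adjusted p = 0.018), was lost without control 2, control 3 or AlCl3 1 (0.078, 0.057 and 0.080), after rescaling to TPM (0.12) and with that trend removed (0.89, log2 fold change 0.012).

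Of 11 corepressor and coactivator genes 8 rose and the other 3 did not pass, with a list median of 0.59 on the log2 scale against 0.03 over all genes. The deacetylase gene Hdac1 rose from 9.68 ± 1.16 to 30.3 ± 1.23 FPKM (1.56 on the log2 scale, SE 0.12, adjusted p = 8.2e-06), and Hdac2 and Hdac3 by 0.91 and 0.71 (0.54 and 0.46 with the GC and length trend removed). Ctbp2, a corepressor of Klf3, rose from 4.22 ± 0.266 to 7.78 ± 0.789 FPKM (0.75). Among ubiquitin ligase genes 1 of 6 passed, Smurf1, which rose from 11.9 ± 1.76 to 17.5 ± 0.715 FPKM (0.53, adjusted p = 0.0057, and 0.87 with that trend removed). Itch, Smurf2 and Vhl, at -0.30, 0.19 and -0.09, did not pass, but Itch passed as lower with that trend removed (-0.59, adjusted p = 4.6e-04).

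Among genes reported elsewhere as targets of Klf proteins, 7 of 17 tested fell and 6 rose. Edn1, the endothelin gene that KLF2 lowers in human endothelial cells, fell from 5.81 ± 1.07 to 0.265 ± 0.0392 FPKM (-2.42 on the log2 scale, adjusted p = 3.2e-06). Cyclin genes reported to be repressed by KLF4 in human cells rose. Ccnb1 went from 11.0 ± 2.42 to 67.0 ± 7.90 FPKM (2.51), and Ccnd1 from 29.3, 29.9 and 35.1 FPKM to 80.5, 86.9 and 87.5 FPKM (1.41). Any part of Klf4 or of other members in this rise was not tested. Hspa8, a chaperone gene of the same target list, rose by 2.45. The next 3 genes were chosen after their values were seen. Ccl5, linked above to Klf13, whose groups overlapped, fell from 544 ± 81.9 to 152 ± 21.2 FPKM. S1pr1, which Klf2 activates in mouse T cells, fell from 2.99 ± 0.0611 to 0.818 ± 0.223 FPKM. Cdkn1a went the other way, from 8.67 ± 1.41 to 15.1 ± 6.06 FPKM, and passed as higher.

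**Figure D4:**
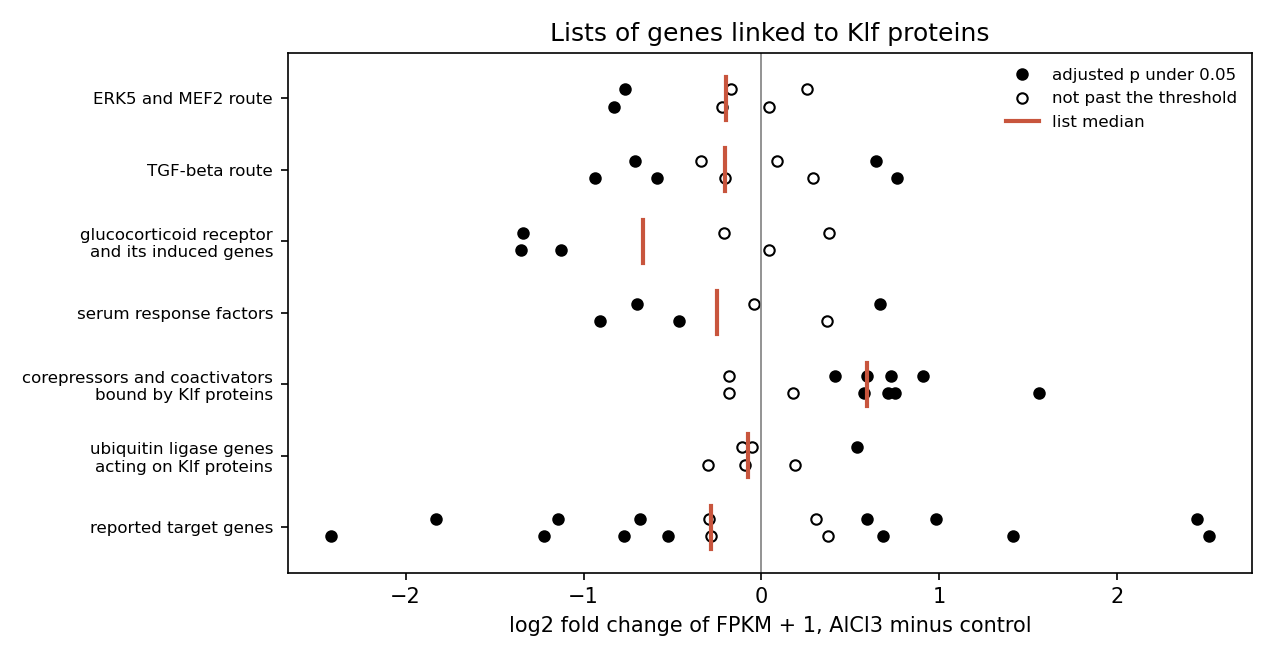
Log2 fold change of FPKM + 1 (AlCl3 minus control) of the tested genes in 7 lists linked to Klf proteins, with filled points for adjusted p under 0.05 in limma, open points for the others and red lines for list medians. The corepressor and coactivator list has 8 of 11 filled points, all above 0, beside 31.2% of all genes tested that passed as higher. The target list spreads from -2.42 to 2.51.

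Klf10 had the highest mean FPKM of the members when all 6 libraries were pooled, although Klf6 was higher in each AlCl3 library, and the 5 named genes most like it over the 6 libraries were Unc119, Hoxb9, Fbxo2, Dnal4 and Fam43a. Their Pearson correlations with Klf10 on the log2(FPKM + 1) scale ran from 0.9994 to 0.9997 over 6 libraries in 2 groups, a description that mostly reflects the step between the groups. Unc119 went from 24.6 ± 2.25 to 6.69 ± 0.625 FPKM and Fam43a from 10.6 ± 1.17 to 1.39 ± 0.400 FPKM.

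Markers placed the cells in part. Of 14 Sertoli cell markers 6 were tested, with Gata4 at 11.6 FPKM in controls, while Wt1 and Amh were near 0, at 0.146 and 0.0470 FPKM in controls. Gata4, Inha and Dhh were lower in AlCl3 and Sox9 higher, and the summed list was at 23.8 to 33.3 FPKM in controls and 15.1 to 19.0 in AlCl3. The 5 endothelial markers in the table had means over the 6 libraries of at most 0.0470 FPKM, those of germ cells at most 0.0891 and those of Leydig cells at most 0.509. Of the retina markers, listed because the extraction text of the labels names retinas, Rbpms alone was tested and fell from 21.9 ± 2.72 to 15.1 ± 0.726 FPKM (-0.51 on the log2 scale, adjusted p = 0.0057), and Nrl and Pde6b were under 0.01 FPKM in both groups. Markers of peritubular myoid and smooth muscle cells summed to 693 to 720.5 FPKM in controls and 290 to 329 in AlCl3, with 3 of 4 tested lower. Most of that sum came from Acta2 (means of 454 and 183 FPKM) and Myl9 (230 and 111 FPKM). Cnn1 did not pass, and Tagln and Myh11 were not tested, at 0.345 and 0.00524 FPKM in controls. Macrophage and leukocyte markers summed to 8.18 to 10.1 FPKM in controls and 31.0 to 33.4 in AlCl3, mostly from Cd14. The part of these lists in the Klf differences was not tested.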

How the data were processed

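The authors deposited FPKM values for 24354 genes, 1 column per library, as read from the table's name and its values. The submitters' processing notes name HISAT2 2.1.0 and GRCm38. Which counter, annotation and strand setting were used is not given in the sources used here. Symbols, exon lengths and coordinates came from GENCODE mouse release M21 (GRCm38), which held 24300 of the identifiers.

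FPKM times summed exon length gave whole reads, within 0.01, for 98.4% of genes. Their totals ran from 13381191 (AlCl3 2) to 17339432 (AlCl3 1), and a single read per kb equalled 0.0568 to 0.0736 FPKM. Intervals and floors cover counting error only.

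Genes with a mean of at least 1 FPKM entered limma 3.58.1 (R 4.3.3), fitted to log2(FPKM + 1) with the variance trended on level, two-sided, Benjamini-Hochberg over all genes tested, threshold 0.05. Fold changes on that scale understate those of low genes. The step was tested on simulated data, in 5 simulations with 200 genes changed in each. That is fewer than the 3490 higher and 3379 lower genes called here, so shifts of that extent were not tested. Nothing says that the replicates came from different cultures, so p-values measure the spread between these libraries. Members and lists were chosen with earlier results of these data known. The text names the members, every other Klf and Sp gene in the table, the 4 genes of smallest p in each other list and the 5 genes most like the member with the highest mean over all 6 libraries, and marks others. Alternatives were other pseudocounts, filters and scalings, removal of a GC and length trend, a replicate block, limma voom on recovered reads and leaving out each library.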

Additional observations from a re-analysis of the deposited data

How the results depend on the processing

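The members were chosen with their values known, so nothing is read from how many of them were called lower. That count was 8 of 10, beside 30.2% of all genes tested. It was 7 after rescaling to TPM, where Klf9 was not called, and 9 without control 1, where Klf13 was. With a filter at a mean of 5 FPKM it was 5, and Klf2, Klf4 and Klf11 were not tested. Rescaling to TPM moved the median log2 fold change of all genes up by 0.10, and Klf9 stood at -0.43 there. Signs turned with the GC and length trend removed for Klf6 (-0.21), Klf13 (0.16), Klf16 (0.17), Mef2a (-0.029) and Mrtfa (0.012), and for Vhl after rescaling to TPM (0.021), and the cause was not tested. Among other Klf and Sp genes 1 rose, and 2 did after rescaling to TPM, under median-ratio scaling, with the GC and length trend removed, with the replicate block and in voom. The count that fell was 1, with 2 when no filter was used and 0 at a mean of 5 FPKM. Both counts ranged from 1 to 2 when each library was left out. The counts of linked genes stayed within 1.5 times under all alternatives. Over all genes the replicate block gave 3778 higher and 3597 lower, against 3490 and 3379, and Sp1 and Nr3c1 passed with it (adjusted p = 0.031 and 0.041, limma). Deviations from the group mean correlated at 0.20, 0.097 and 0.39 between the control and AlCl3 libraries of numbers 1 to 3. AlCl3 1 and AlCl3 3 were closest to the control of their own number, while AlCl3 2 was closer to control 1 (0.17) than to control 2. Whether the numbers mark a shared culture or batch was not tested.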
